A study of Homo sapiens with 6 samples.

Results

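The transcription factor gene BHLHE40 and 9 further genes of the circadian clock (BHLHE41, PER1, PER2, PER3, CRY1, CRY2, CLOCK, NR1D2 and DBP) were described in DMS-53 cells exposed to iron chelators. Members were the probe sets whose only gene symbol in the platform annotation is one of these 10 symbols, which gave 22 probe sets of 9 genes among 54675 probe sets and 19775 genes with a probe set of their own. PER1 had no such probe set, because its 4 probe sets also carry the symbol of a microRNA gene, and it was not analysed here. DMS-53 is an established human small cell lung cancer line, and 6 Affymetrix U133 Plus 2.0 arrays held its total RNA after 24 h in RPMI control medium, in the same medium with 250 µM of the siderophore DFO (desferrioxamine), or with 25 µM of the thiosemicarbazone chelator Dp44mT. Each group had 2 arrays, called set 1 and set 2 after the sample titles, which do not say whether they came from separate cultures, so every error below measures only the spread between these arrays and may be technical. The gene list was proposed because BHLHE40 was already known to be far higher with both chelators, so the members were chosen by their measured differences from control, which are given as a description with no test.

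The circadian clock is a feedback loop of transcription. The proteins CLOCK and BMAL1 bind E-box sequences and switch on the PER and CRY genes, whose proteins return to the nucleus and inhibit CLOCK and BMAL1. BHLHE40 and BHLHE41 (also DEC1 and DEC2) are basic helix-loop-helix repressors that bind E-boxes and damp the same loop, and BHLHE40 is a known target of the hypoxia-inducible factors, which iron chelation stabilizes. The nuclear receptors NR1D1 and NR1D2 (REV-ERB) repress and the ROR receptors activate BMAL1, and DBP is an output factor that binds D-box sequences. A single time of 24 h was sampled, so levels were measured and rhythms were not.

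The promoter sequences of 5 members are shown as examples, with motifs of the elements through which this loop and the hypoxia response act on DNA. They are the 250 bases before the transcription start in RefSeq (GRCh38.p14), written 5′ to 3′ on the gene's strand, with every match to the searched motifs in capitals. The motifs, searched on both strands, were the E-box CACGTG, the E′-box CACGTT, the core of the hypoxia response element ACGTG or GCGTG, the D-box TTATGTAA and the cyclic AMP response element TGACGTCA. The E-box and the E′-box each contain a hypoxia core, so 1 stretch can match both.
BHLHE40 (chr3:4979187-4979436, + strand): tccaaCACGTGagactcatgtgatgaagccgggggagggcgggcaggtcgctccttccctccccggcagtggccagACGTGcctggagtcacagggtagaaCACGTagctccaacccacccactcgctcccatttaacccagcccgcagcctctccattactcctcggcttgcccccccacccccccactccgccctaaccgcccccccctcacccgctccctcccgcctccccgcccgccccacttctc
BHLHE41 (chr12:26125038-26125287, - strand): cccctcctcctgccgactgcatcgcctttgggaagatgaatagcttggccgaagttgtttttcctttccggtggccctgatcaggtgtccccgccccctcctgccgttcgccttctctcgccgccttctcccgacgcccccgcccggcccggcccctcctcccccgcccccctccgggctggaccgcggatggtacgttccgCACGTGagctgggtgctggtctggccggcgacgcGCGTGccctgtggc
PER2 (chr2:238288611-238288860, - strand): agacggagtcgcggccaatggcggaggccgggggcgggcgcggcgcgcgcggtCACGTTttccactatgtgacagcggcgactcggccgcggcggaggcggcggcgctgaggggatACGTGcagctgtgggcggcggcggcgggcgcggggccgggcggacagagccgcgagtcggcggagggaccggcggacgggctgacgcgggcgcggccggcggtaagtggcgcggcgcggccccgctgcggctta
CLOCK (chr4:55545933-55546182, - strand): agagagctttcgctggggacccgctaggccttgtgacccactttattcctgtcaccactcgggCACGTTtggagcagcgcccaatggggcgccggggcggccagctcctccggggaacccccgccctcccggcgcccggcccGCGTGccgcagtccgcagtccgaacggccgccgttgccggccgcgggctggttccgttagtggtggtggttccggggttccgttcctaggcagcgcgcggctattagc
NR1D2 (chr3:23945871-23946120, + strand): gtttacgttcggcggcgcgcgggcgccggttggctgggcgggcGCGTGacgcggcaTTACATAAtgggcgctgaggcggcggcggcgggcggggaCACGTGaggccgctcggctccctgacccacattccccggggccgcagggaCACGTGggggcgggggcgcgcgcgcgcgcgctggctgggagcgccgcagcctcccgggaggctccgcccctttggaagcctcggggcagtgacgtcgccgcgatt
BHLHE40 has its E-box 245 to 240 bases before the start and further hypoxia cores at 174 to 170 and 149 to 145 bases before it. BHLHE41 has an E-box 48 to 43 bases before the start. PER2 has no E-box CACGTG in this window but an E′-box at 197 to 192 bases and a hypoxia core at 134 to 130 bases. The start of NR1D2 shown here has 2 E-boxes and a D-box (TTACATAA on this strand), and its other start in the table has no match to any of the 5 motifs. CLOCK likewise has another start with no match to any of the 5 motifs. Over the 14 promoters listed for the 10 genes, 4 held an E-box, 4 an E′-box, 11 a hypoxia core, 2 a D-box and 0 the cyclic AMP response element. All 10 genes, including those not shown, had a hypoxia core in at least 1 promoter. Among all 35116 promoters of the same length the shares were 6.34%, 4.55%, 43.2%, 0.834% and 1.65%, in that order. A match is a description of the sequence and not a measured binding site.

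The arrays differed in brightness. Median deposited intensities were 88.9 and 88.8 in control, 85.5 and 63.0 in DFO and 83.6 and 49.9 in Dp44mT, so the set 2 chelator arrays were the dimmest. Log2(intensity + 16) values were therefore quantile normalized, and a probe set was tested when its mean over the 6 arrays reached the 25th percentile, 5.55. Of the 22 member probe sets 20 passed, and the remaining pair, both of PER3, is given by its levels only. A difference is the log2 difference of group means with the standard error (SE) of limma's moderated fit over 40950 probe sets. The line's neuroendocrine character showed in its markers (11 of 12 measured), with CALCA at deposited intensities between 5442 and 10675. INSM1, a neuroendocrine transcription factor gene, was lower with both chelators, by 4.61-fold in DFO (adjusted p = 0.0523 in limma) and 10.3-fold in Dp44mT (adjusted p = 0.0154), the 1 marker called. Fibroblast markers (10 of 10 measured) summed to 1788 and 1070 in control, 1506 and 2028 in DFO and 1561 and 1893 in Dp44mT, and 5 endothelial markers to 929 and 480, 957 and 1223, and 816 and 1166. All but PDGFRB, CDH5 and PTPRC passed the filter (9 of 10 fibroblast, 4 of 5 endothelial and 4 of 5 leukocyte markers). DCN, a fibroblast marker, was at 217 and 42.5 in control, 153 and 343 in DFO and 136 and 390 in Dp44mT. In set 2, COL1A2, COL3A1 and POSTN were also higher with DFO and Dp44mT (log2 3.45 and 3.70, 3.12 and 2.84, 3.19 and 3.78). COL6A3, LUM and FBN1 were lower there (−0.48 and −0.32, −0.23 and −0.46, −0.15 and −0.002). Each marker is given by its probe set of highest mean, and others differed in size. Over both sets in DFO, DCN had a mean log2 difference of 1.38, against −0.47, 0.27 and 0.12 in its other tested probe sets. For COL1A2 the values were 1.60 against 0.04, for COL3A1 1.29 against 0.77 and −0.28, and for POSTN 1.45 against 0.59. PECAM1, an endothelial marker, was at 741 and 313 in control, 575 and 1009 in DFO and 609 and 1008 in Dp44mT. The leukocyte marker CD79A lay between 343 and 497. In limma 0 of the fibroblast, endothelial and leukocyte markers were called against control with either chelator, and 1 endothelial marker in each contrast had an unadjusted p under 0.05, KDR in DFO and TEK in Dp44mT. In set 2 the fibroblast and endothelial sums were higher in the chelator arrays than in control. In set 1 the fibroblast sum was lower with both chelators, and the endothelial sum was higher with DFO and lower with Dp44mT. The part of these markers in the results below was not tested. In RNA from whole cultures, fewer cells of a kind and less RNA per cell cannot be told apart.

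BHLHE40 was far higher in every chelator array than in both control arrays. Probe set 201170_s_at had deposited intensities of 16.1 and 17.0 in control, 1662 and 790 in DFO and 1400 and 684 in Dp44mT. The groups of treated and control arrays did not come near each other, and the lower value of each chelator was that of set 2, whose arrays were dim as a whole. After normalization the levels were 4.93 and 4.91 in control, 10.26 and 10.15 in DFO and 10.31 and 10.32 in Dp44mT. The log2 difference was 5.28 for DFO (SE 0.18, n = 2 arrays per group), a 39.0-fold higher level, and 5.39 for Dp44mT (SE 0.18), a 42.0-fold higher level. The second probe set, 201169_s_at, was listed at 0.0175 and 0.0185 in control, effectively at the bottom of the scale, and at 674 and 290 in DFO and 772 and 227 in Dp44mT. On the log2(intensity + 16) scale this is a difference of 4.83 for DFO (SE 0.30) and 5.11 for Dp44mT (SE 0.30). Because the control signals lay close to or below the pseudocount of 16, the fold depends on it: with a pseudocount of 1 201170_s_at gave 6.27 and 6.38, and with 64 it gave 3.97 and 4.08.

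**Figure D1:**
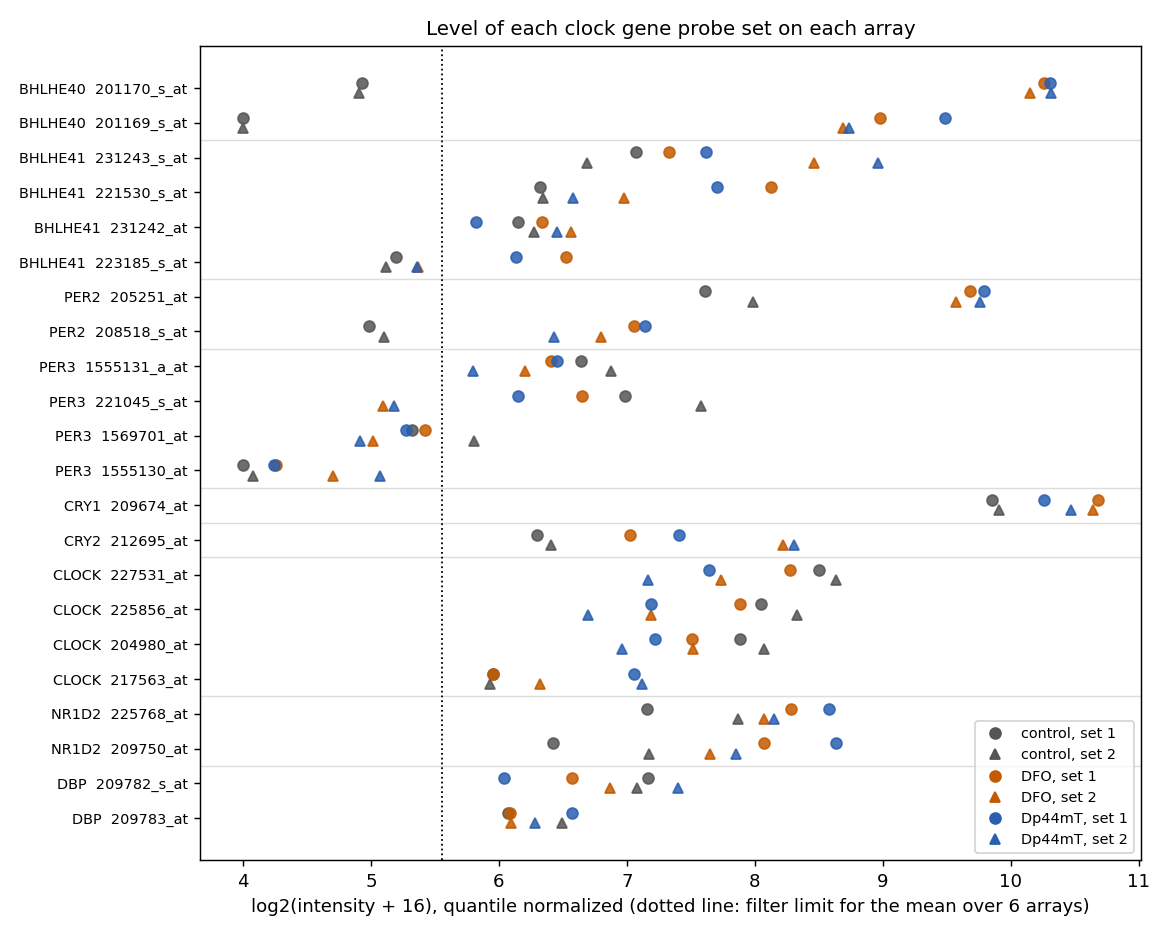
Level of each of the 22 member probe sets on each array, as log2(intensity + 16) after quantile normalization (circles, set 1; triangles, set 2; grey, control; orange, DFO; blue, Dp44mT; dotted line, the filter limit of 5.55 for the mean). Both BHLHE40 probe sets and both PER2 probe sets have all 4 chelator arrays to the right of both control arrays; levels of different probe sets are not comparable with each other.

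BHLHE41, the paralogue of BHLHE40, gave probe sets that disagreed in size. In 221530_s_at the deposited intensities were 74.6 and 76.6 in control, 355 and 88.7 in DFO and 209 and 52.5 in Dp44mT. The normalized levels were higher with either chelator in both sets, but mostly in set 1 (1.81 against 0.63 for DFO and 1.39 against 0.24 for Dp44mT on the log2 scale). Probe set 223185_s_at went the same way, with 1.33 in set 1 and 0.25 in set 2 for DFO. In contrast, 231243_s_at differed more in set 2, by 1.77 with DFO and 2.27 with Dp44mT, against 0.26 and 0.55 in set 1. The fourth probe set, 231242_at, ran from −0.32 to 0.29 on the log2 scale over the sets of both chelators. The mean differences over both sets ran from 0.24 to 1.22 for DFO and from −0.07 to 1.41 for Dp44mT, with SE from 0.27 to 0.57.

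PER2, a core inhibitor of CLOCK and BMAL1, was higher in all 4 chelator arrays in both of its probe sets. In 205251_at the deposited intensities were 220 and 300.4 in control, 1113 and 535 in DFO and 968 and 462 in Dp44mT, and no chelator array fell to the level of a control array. The log2 difference was 1.83 for DFO (SE 0.21), a 3.55-fold higher level, and 1.98 for Dp44mT (SE 0.21), 3.94-fold. Probe set 208518_s_at rested on control intensities of 17.3 and 21.9, close to the pseudocount, against 142 and 78.2 in DFO and 136 and 46.8 in Dp44mT. It gave log2 differences of 1.89 (SE 0.29) and 1.75 (SE 0.29), in the same direction as 205251_at. Their relative size depends on the pseudocount: 208518_s_at had the larger differences with a pseudocount of 1 and the smaller ones with 64.

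PER3 lay on the opposite side in both of its tested probe sets. Its probe set 221045_s_at had deposited intensities of 134 and 217 in control, 96.9 and 15.9 in DFO and 61.7 and 13.2 in Dp44mT. Every chelator array was below both control arrays, by little in set 1 for DFO (−0.34) and by much in set 2 (−2.48), and the SE of 0.61 reflects that spread. The mean log2 differences were −1.41 for DFO and −1.62 for Dp44mT. Probe set 1555131_a_at was also lower, by −0.45 (SE 0.28) and −0.63 (SE 0.28). Probe sets 1569701_at and 1555130_at are the pair below the filter. The deposited intensities of 1569701_at were 26.8 and 47.1 in control, 28.8 and 14.4 in DFO and 25.9 and 8.88 in Dp44mT. Those of 1555130_at, all below the pseudocount of 16, ran the other way. They were 0.0186 and 1.79 in control, 3.87 and 8.66 in DFO and 3.45 and 11.3 in Dp44mT.

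The cryptochrome genes CRY1 and CRY2 encode the partners of the PER proteins. CRY1 had deposited intensities of 1066 and 1347 in control, 2216 and 1109 in DFO and 1347 and 764 in Dp44mT, so the deposited groups overlap. After normalization all 4 chelator arrays were above both control arrays, with log2 differences of 0.78 for DFO (SE 0.19) and 0.48 for Dp44mT (SE 0.19). Without scaling the Dp44mT difference of CRY1 turned below 0. CRY2 was at 73.1 and 81.1 in control, 138 and 211 in DFO and 167 and 169 in Dp44mT, with no overlap already on the deposited scale. Its log2 differences were 1.27 for DFO and 1.50 for Dp44mT (SE 0.48 for both), and they were larger in set 2 (1.81 and 1.89) than in set 1 (0.73 and 1.11).

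CLOCK, the activator of the loop, had lower levels in 3 of its 4 probe sets. In 227531_at, deposited intensities were 424 and 506 in control, 398 and 151 in DFO and 199 and 80.0 in Dp44mT. The Dp44mT arrays were the lowest of each set, and the DFO array of set 1 was close to its control. The log2 differences of 227531_at were −0.56 for DFO and −1.16 for Dp44mT (SE 0.28). Probe sets 225856_at and 204980_at gave −0.65 and −0.46 for DFO and −1.25 and −0.88 for Dp44mT. The remaining probe set, 217563_at, ran the other way in Dp44mT: it was at 52.7 and 53.2 in control, 49.8 and 54.3 in DFO and 127 and 77.2 in Dp44mT. Its log2 differences were 0.19 for DFO (SE 0.21), with overlapping arrays, and 1.14 for Dp44mT (SE 0.21).

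NR1D2, a haem-binding repressor of BMAL1, was higher with both chelators, mainly in set 1. Its probe set 225768_at had deposited intensities of 155 and 273 in control, 399.8 and 192 in DFO and 393 and 153 in Dp44mT. The control arrays themselves differed here, and on the deposited scale the set 2 chelator arrays lay below the set 2 control. After normalization the log2 differences were 0.66 for DFO and 0.85 for Dp44mT (SE 0.31), and those of 209750_at were 1.06 and 1.45 (SE 0.39). The set 1 and set 2 values of 209750_at were 1.65 and 0.47 for DFO and 2.21 and 0.68 for Dp44mT.

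DBP showed no difference in a single direction. Its probe set 209782_s_at was at 156 and 144 in control, 90.5 and 82.4 in DFO and 56.2 and 93.5 in Dp44mT, which is lower in every chelator array on the deposited scale. After normalization the log2 difference was −0.40 for each chelator (SE 0.46), and the Dp44mT arrays lay on both sides of control (−1.13 in set 1 and 0.32 in set 2). In 209783_at the differences were −0.19 for DFO and 0.15 for Dp44mT (SE 0.24).

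**Figure D2:**
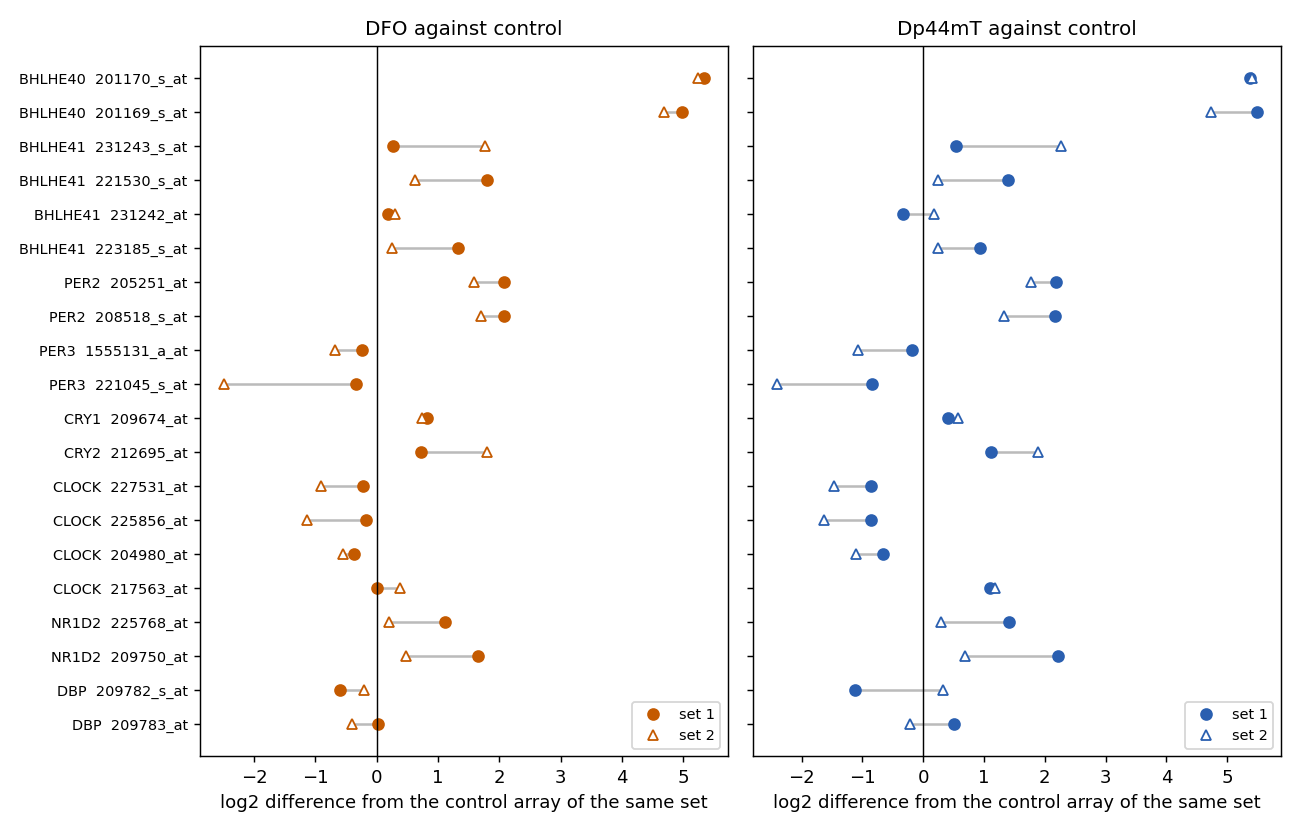
Log2 difference of each tested member probe set from the control array of the same set, for DFO (left) and Dp44mT (right); filled circles are set 1, open triangles set 2, and a grey line joins them. The lines of BHLHE40 and PER2 lie wholly to the right of 1; BHLHE41 231243_s_at, PER3 221045_s_at and CRY2 reach further in set 2 and NR1D2 further in set 1.

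Counted over the 20 tested member probe sets, limma called 3 higher and 0 lower for DFO at a Benjamini-Hochberg adjusted p under 0.05, where 0.589% of all tested probe sets were called (0.569% higher and 0.0195% lower). For Dp44mT the count was again 3 higher and 0 lower, where the shares of all tested probe sets were 1.64% called, 1.07% higher and 0.564% lower. The 3 were the same in both contrasts, both BHLHE40 probe sets and 205251_at of PER2. These contrasts chose the members and share the 2 control arrays. The counts of calls, here and with the other settings below, are therefore no test of the members, and nothing is read from them. In DFO 12 probe sets had both arrays above both control arrays and 6 had both below (17% and 27.8% of all tested probe sets), and in Dp44mT 12 and 5 did (28.5% and 32.8%). The member median was 0.72 in DFO and 0.70 in Dp44mT on the log2 scale, beside −0.04 and 0.01 over all tested probe sets. Without both set 2 chelator arrays, limma called 4 higher and 0 lower for DFO, and 9 higher and 1 lower for Dp44mT. Calls over all probe sets moved as well in that setting, from 241 to 380 for DFO and from 670 to 3544 for Dp44mT. With any 1 of the 4 arrays of a contrast left out, limma called 0 member probe sets and 0 probe sets in all, with 4 to 10 members at an unadjusted p under 0.05 for DFO and 7 to 12 for Dp44mT. The call of PER2 205251_at in DFO was also lost on the deposited scale, with array medians subtracted, with a pseudocount of 1 and with no filter. It was lost as well with set as a block, without either Dp44mT array and without both set 2 chelator arrays. In Dp44mT it was lost on the deposited scale and with array medians subtracted.

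Dp44mT was compared with DFO directly, a contrast that did not choose the members. None of the 20 member probe sets was called (limma, 0 of 20), and 1 of 20 had an unadjusted p under 0.05, where that share was 3.29% and the called share 0% over all 40950 probe sets. In 4 probe sets both Dp44mT arrays lay above both DFO arrays and in 4 both lay below (12.9% and 12.4% of all tested). BHLHE40 differed by 0.11 on the log2 scale in 201170_s_at (95% interval −0.35 to 0.56) and by 0.28 in 201169_s_at (−0.47 to 1.03). PER2 differed by 0.15 in 205251_at (−0.39 to 0.69) and CRY1 by −0.30 (−0.78 to 0.18). These intervals leave room for differences of either sign. They come from a fit without set, although the deviations of the DFO and Dp44mT arrays correlate by set (0.83). The differences within set 1 and set 2 were 0.05 and 0.17 for BHLHE40 201170_s_at and 0.51 and 0.05 for 201169_s_at. They were 0.11 and 0.19 for PER2 205251_at and −0.43 and −0.17 for CRY1. With set as a replicate block, limma also called 0 members between the chelators. With array medians subtracted, the signs of BHLHE40 201170_s_at and PER2 205251_at turned negative, and the signs also changed for NR1D2 225768_at and DBP 209782_s_at. On the deposited scale 6 member probe sets changed sign: both of BHLHE40, PER2 205251_at, CRY2, NR1D2 225768_at and DBP 209782_s_at. BHLHE40 was lowest in control, and no order between the chelators was established. CLOCK stood lower in Dp44mT than in DFO in 227531_at (−0.60, interval −1.31 to 0.11), 225856_at (−0.59, −1.40 to 0.21) and 204980_at (−0.42, −0.93 to 0.08), each with both Dp44mT arrays below both DFO arrays. Its probe set 217563_at was higher in Dp44mT by 0.95 (0.42 to 1.48), the largest difference among the members, with an unadjusted p of 0.00509 and an adjusted p of 0.969 in limma. The 2 compounds were given at different doses, 250 and 25 µM.

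**Figure D3:**
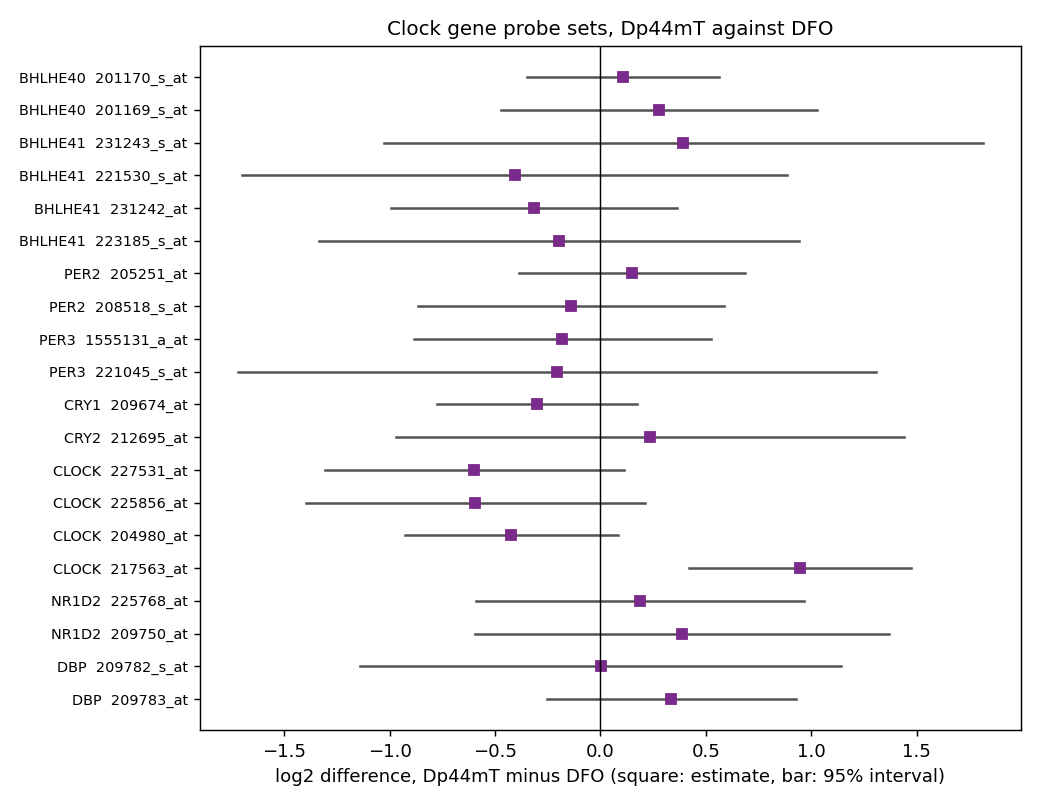
Log2 difference of Dp44mT minus DFO for the 20 tested member probe sets (squares) with 95% intervals (bars). The intervals span 0 for all but CLOCK 217563_at, at 0.95, and none passed after adjustment.

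Around these members, a wider list of 32 genes was tested in all 3 contrasts. It held clock genes and 4 bHLH-PAS factors of the hypoxia response (HIF1A, EPAS1, ARNT and ARNT2). Of the 32 genes, 29 had a probe set of their own and all 29 passed the filter. Each gene is represented by its probe set of highest mean. The list was chosen with earlier results of these data known. The shares called are therefore a description and no independent support for the pathway. In DFO 4 genes rose, 0 fell and 25 did not pass (13.8% called, beside 0.794% of 16868 genes represented the same way, 0.753% higher and 0.0415% lower). The median log2 difference of the list was 0.32, beside −0.03 over those genes. In Dp44mT 4 rose, 0 fell and 25 did not pass (13.8%, beside 2.06%, of which 1.36% higher and 0.7% lower), with a median of 0.42 beside 0.03. The 4 genes were NFIL3, CIART, KLF10 and EPAS1 in both, of which EPAS1 belongs to the hypoxia response factors of the list. On the deposited scale limma called 0 of the list for either chelator (4 each at an unadjusted p under 0.05). Calls over all 40950 probe sets fell there as well, to 31 in DFO and 39 in Dp44mT. With any 1 of the 6 arrays left out it called 0 in DFO (9 to 13 unadjusted). In Dp44mT it called 0 without any 1 control or Dp44mT array (10 to 13 unadjusted) and 3 without either DFO array. Without both set 2 chelator arrays it called 4 in DFO and 7 in Dp44mT, where calls over all probe sets rose to 380 and 3544. Leaving out an array of the contrast itself removed the calls of all probe sets too, as given above, so nothing is read from those counts. With array medians subtracted, NFIL3 passed in DFO, and NFIL3 and CIART in Dp44mT, and the others of the 4 did not. Calls over all probe sets were then 144 in DFO and 363 in Dp44mT. None was called between the chelators (0 of 29, with 1 at an unadjusted p under 0.05).

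Among the output genes of the clock, NFIL3, which encodes a repressor that competes with DBP for D-boxes, rose most clearly. It had deposited intensities of 209 and 196 in control, 1190 and 628 in DFO and 1306 and 655 in Dp44mT, with every chelator array above both control arrays. The rise was 4.90-fold in DFO (log2 2.29, SE 0.18, adjusted p = 0.0177 in limma) and 6.65-fold in Dp44mT (log2 2.73, SE 0.18, adjusted p = 0.00974). The D-box activators TEF and HLF did not pass, with log2 differences of −0.16 and 0.32 in DFO and 0.42 for both in Dp44mT.

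Of the other feedback and output genes 2 of 11 rose with each chelator. CIART, a circadian repressor of CLOCK and BMAL1, stood at 73.1 and 110 in control, 665 and 297 in DFO and 720 and 255 in Dp44mT. It rose by 4.95-fold in DFO (log2 2.31, SE 0.28, adjusted p = 0.0479) and by 6.13-fold in Dp44mT (log2 2.62, SE 0.28, adjusted p = 0.0251). KLF10, a Krüppel-like transcription factor with a circadian rhythm in several tissues, was at 533 and 803 in control, 3175 and 1736 in DFO and 2904 and 1309 in Dp44mT. Its log2 differences were 2.23 (SE 0.22, adjusted p = 0.0273) and 2.25 (SE 0.22, adjusted p = 0.021). SIRT1, an NAD-dependent deacetylase tied to the clock, reached 0.99 in DFO (adjusted p = 0.137) and 1.22 in Dp44mT (adjusted p = 0.0505) and did not pass. ID3, an inhibitor of helix-loop-helix proteins, had 1.34 and 1.06 (adjusted p = 0.0896 and 0.0815 in limma). For NAMPT the probe sets differed in call. The one of highest mean, 217739_s_at, gave 0.98 in DFO and 1.12 in Dp44mT (adjusted p = 0.159 and 0.064 in limma). In Dp44mT 1555167_s_at (1.49, adjusted p = 0.0407) and 243296_at (2.02, adjusted p = 0.0493) passed in limma. In DFO they gave 1.06 and 1.99 and did not pass. The remaining probe set, 217738_at, passed with neither chelator (0.78 and 0.76).

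The partners of CLOCK and the receptors that act on BMAL1 were higher or mixed. BMAL1 had deposited intensities of 332 and 311 in control, 774 and 416 in DFO and 626 and 363 in Dp44mT, all chelator arrays above both control arrays. Its log2 differences of 1.09 (SE 0.19) and 1.22 (SE 0.19) did not pass (adjusted p = 0.123 and 0.0558 in limma). BMAL2 and NPAS2 gave −0.40 and 0.39 in DFO and −0.74 and 0.34 in Dp44mT. For RORA, an activator of BMAL1, the probe sets differed in call: 226682_at, the one of highest mean, gave 1.38 in DFO (adjusted p = 0.0752) and 0.75 in Dp44mT (adjusted p = 0.128), but 4 of the 7 tested rose with each chelator. The largest was 210426_x_at, at 125 and 126 in control, 1186 and 566 in DFO and 1031 and 463 in Dp44mT, with log2 differences of 2.80 (SE 0.19, adjusted p = 0.0151) and 2.92 (SE 0.19, adjusted p = 0.00974). RORB did not pass, with 1.44 and 1.55 (SE 1.05) made up of −0.04 and −0.52 in set 1 and 2.93 and 3.63 in set 2. DCN, the fibroblast marker, differed by 3.22 and 3.81 in set 2 as well, and its part was not tested. The 6 kinase and ubiquitin ligase genes with a probe set, CSNK1D, CSNK1E, GSK3B, FBXL21P, BTRC and FBXW11, had 0 calls in limma, with 1 in DFO and 2 in Dp44mT at an unadjusted p under 0.05.

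EPAS1, which encodes the hypoxia-inducible factor HIF-2α, was the 1 gene called among the 4 bHLH-PAS factors of the hypoxia response, through its probe set 200878_at. This was at 636 and 555 in control, 2561 and 1352 in DFO and 1562 and 1045 in Dp44mT, and rose by 3.99-fold in DFO (log2 2.00, SE 0.25, adjusted p = 0.0497) and 3.41-fold in Dp44mT (log2 1.77, SE 0.25, adjusted p = 0.0413). HIF1A was at 0.13 and −0.08 on the log2 scale, ARNT at −0.06 and −0.52, and ARNT2 at −0.16 and −0.63, and none of these passed. With a pseudocount of 1, EPAS1 did not pass in either chelator (adjusted p = 0.0736 in DFO and 0.0588 in Dp44mT in limma), and CIART did not pass in DFO (adjusted p = 0.0665). The DFO call of EPAS1 was also lost with no filter (adjusted p = 0.0609) and with set as a replicate block (adjusted p = 0.0693). Its other tested probe set, 200879_s_at, did not pass, with log2 differences of 1.41 in DFO (adjusted p = 0.0525) and 1.14 in Dp44mT (adjusted p = 0.0541). EPAS1 is also a gene of endothelium, whose marker sums, made up mostly of PECAM1, are given above, and their part was not tested.

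**Figure D4:**
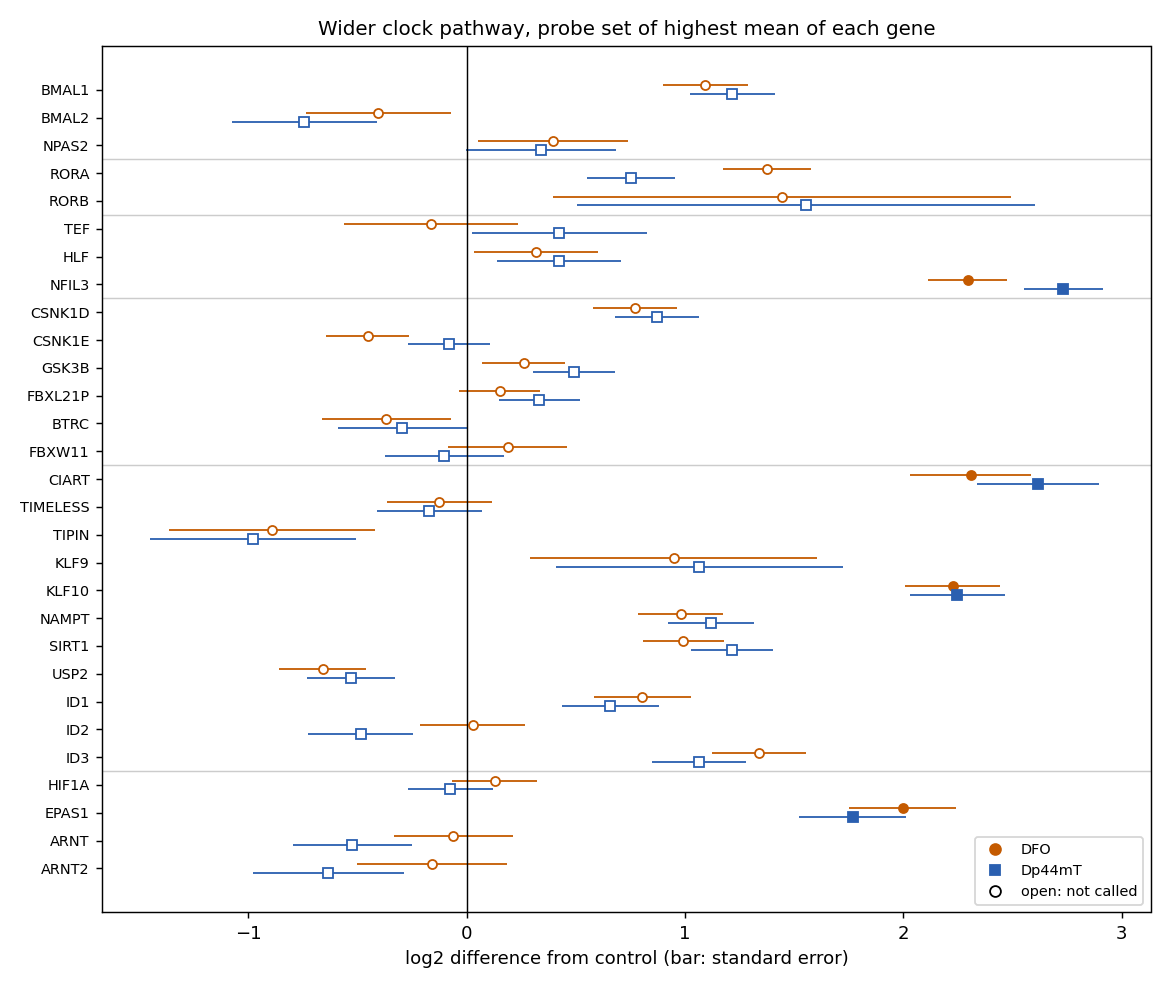
Log2 difference from control for the 29 tested genes of the wider list of clock genes and hypoxia response factors. DFO is shown by orange circles and Dp44mT by blue squares, with standard errors. Filled symbols passed an adjusted p of 0.05 and grey lines separate the gene groups. NFIL3, CIART, KLF10 and EPAS1 are filled for both chelators, all to the right of 0.

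The genes most like BHLHE40 over the 6 arrays were found by the root mean square difference of log2 values, each gene centred on its control mean, among 16867 other genes. They were TNFAIP3 (0.32), FOS (0.68), ATF3 (0.69), ADM (0.76) and ANKRD37 (0.95). TNFAIP3, an inhibitor of NF-kB signalling, was at 34.4 and 38.0 in control, 1654 and 1054 in DFO and 1857 and 912 in Dp44mT, with every chelator array above both control arrays. ADM encodes the vasodilator peptide adrenomedullin and stood at 299 and 202 in control, 5820 and 3693 in DFO and 5246 and 2949 in Dp44mT. The measure says only that the values lie close together.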

How the data were processed

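The authors deposited linear intensities, 1 per probe set and array. The submitters' processing notes name Expression Console 1.1 from Affymetrix as the software. Their summarization, background correction and normalization are not given in the sources used here. Values of 54675 probe sets on 6 arrays were read, 62 of them array controls that were not tested. Gene symbols came from the platform annotation (1 symbol for 41097 probe sets, several for 1801, none for 11777), and 3 older symbols (ARNTL, ARNTL2, FBXL21) were matched through RefSeq synonyms.

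Log2(intensity + 16) was quantile normalized across the arrays because their medians differed. Probe sets with a mean at or above the 25th percentile (40950) were fitted with limma 3.58.1 in R 4.3.3, with all 3 groups in 1 model (3 residual and 2.53 prior degrees of freedom), two-sided, and p-values were Benjamini-Hochberg adjusted within a contrast. The fit was also run on simulated data with independent noise on each array. The deviations of the real chelator arrays correlate by set (0.83), so that run does not measure the error of the fit here. Precision is limited by the number of arrays, and 95% intervals had a median half-width of 0.68 on the log2 scale. With 2 arrays a group, 0.333 is the smallest two-sided p of an exact permutation test, so none was run.

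The members and lists were chosen with earlier results of these data known. Named were all members, up to 8 genes of the wider list (those called, then the smallest p) and the 5 genes nearest to BHLHE40. NAMPT was named because its probe sets differed in call. Listed genes without a probe set of a single symbol were not analysed here. Alternatives were other scalings, pseudocounts and filters, 1 probe set per gene, set as a block, and arrays left out.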

Additional observations from a re-analysis of the deposited data

How the results depend on the processing

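For BHLHE40 201170_s_at, the log2 difference stayed above 3.9 in every alternative run: it was 5.16 (DFO) and 4.93 (Dp44mT) on the deposited scale, 5.39 and 5.31 with array medians subtracted, 6.27 and 6.38 with a pseudocount of 1, 3.97 and 4.08 with 64, and 5.59 and 5.63 without both set 2 chelator arrays. With 1 array left out it ran from 5.15 to 5.42 in DFO and from 5.30 to 5.50 in Dp44mT. The count of genes of the wider list called in DFO was 4. It fell to 0 on the deposited scale and 1 with array medians subtracted. It was 2 each with a pseudocount of 1, with no filter and with set as a replicate block. With a pseudocount of 64 it was 6, and the fits with 1 array left out are given above. In Dp44mT the count (4) was 0 on the deposited scale, 2 with medians subtracted, 8 with a pseudocount of 64, 7 each with 1 probe set per gene and without both set 2 chelator arrays, and 0 to 3 with 1 array left out. Calls over all probe sets moved too. In Dp44mT they went from 670 to 39 on the deposited scale and 363 with array medians subtracted. They were 342 with a pseudocount of 1 and 1433 with 64. In DFO they went from 241 to 31, 144, 156 and 437 in the same order. Where a group kept 1 array, that array is assumed to vary like the other groups. Without both set 2 chelator arrays the residual spread comes from the 2 control arrays only. Those correlate most closely across probe sets (0.970, beside 0.907 in DFO and 0.886 in Dp44mT), so errors in that setting may be too small for the chelator groups. The deposited scale moved the median of all probe sets by −0.26 in DFO and −0.47 in Dp44mT; there, CLOCK 217563_at changed sign in DFO, and CRY1 and DBP 209783_at in Dp44mT. Between the chelators 0 members and 0 wider genes were called in each alternative (0 to 3 at an unadjusted p under 0.05). Set numbers pair the chelator arrays (correlation of deviations from the group means 0.83) but not control with DFO (−0.23) or Dp44mT (−0.33), so the block is no main result. Presence calls and probe-level signals were not used here, which leaves dim probe sets such as BHLHE40 in control without a measured background.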
